A study of Mus musculus with 13 samples.

Results

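The Celf genes encode a family of 6 RNA-binding proteins, Celf1 to Celf6, and R-loops over these genes were mapped in the mouse neuroblastoma cell line N2a. The 6 genes were taken by name from the 37273 genes of the mm9 GENCODE M1 annotation, each with its bounds extended by 1 kb, and every DRIP-seq peak that overlapped them was collected. In the 9 untreated libraries 348 of 298649 peaks fell in Celf genes, and in the 3 libraries digested with RNase H 4 of 15763 did. Celf3 was covered over 66.4% to 83.6% of its length by library, and Celf4 carried 3 to 32 peaks, most of them small. In Celf4 and Celf1 most covered bases lay in the first and last of 5 equal parts of the gene. Celf5 and Celf6 were covered over defined parts, and Celf2, the longest of the family, had no peak in any untreated library.

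CELF proteins bind GU-rich stretches of RNA through RNA recognition motifs, and they are known for choosing exons in the nucleus and for controlling translation and decay of mRNAs in the cytoplasm. Celf1 and Celf2 are broadly expressed, whereas Celf3, Celf4, Celf5 and Celf6 are mainly known from the nervous system. An R-loop is a hybrid of an RNA with its template DNA strand that leaves the other DNA strand unpaired. It forms behind transcribing RNA polymerase, most often at GC-rich starts and ends of genes, and RNase H removes it by degrading the RNA of the hybrid.

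N2a cells, labelled wild type, had been transfected with a scrambled siRNA (siScramble), with siRNA against the DEAD-box helicase DDX1 (siDDX1) or with siRNA against EXOSC3, a cap subunit of the RNA exosome (siEXOSC3). A cocktail of 5 restriction enzymes (XbaI, SspI, HindIII, EcoRI and BsrGI) was used to fragment the DNA, and the S9.6 antibody against RNA-DNA hybrids pulled down the fragments that were sequenced (DRIP-seq). Each siRNA group had 3 untreated libraries and 1 library whose DNA was digested with RNase H before capture. The study asked whether loss of either protein changes R-loops, and Celf4 was among the genes it displayed. All libraries came from 1 cell line, the siRNAs lower rather than remove their targets, and peak lists hold no measure of the depletion.

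The treatment in the names of the peaks differed from the treatment in the library title in 12 of 12 lists. Peaks of libraries titled siScramble were named siDDX1, those of libraries titled siDDX1 were named siEXOSC3, and those of libraries titled siEXOSC3 were named siScramble. Groups are given here by title, as "labelled", and all 3 pairs of groups are shown, so that either reading can be followed. By the peak names, siEXOSC3 against siScramble would be the libraries labelled siDDX1 against those labelled siEXOSC3, and siDDX1 against siScramble would be those labelled siScramble against those labelled siEXOSC3. Comparisons of all 3 groups at once and those with RNase H do not depend on the reading. The untreated lists held 23882 to 42571 peaks over 22.0 to 45.3 Mb, and the RNase H lists held 3811 to 8034 peaks. Read depth is unknown, because the lists hold no read counts. Among neuroblast marker genes, Hand2 and Gata2 had a peak in all 9 untreated libraries, while Th and Dbh had none, and 5 of 6 markers of other cell types had none; a peak is not a measure of expression.

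The paralogues differ widely in size. Celf3 (chr3:94282753-94296115, plus strand, ENSMUSG00000028137.5) spans 13.4 kb, Celf5 (chr10:80921972-80945454, minus strand, ENSMUSG00000034818.10) 23.5 kb and Celf6 (chr9:59425724-59455099, plus strand, ENSMUSG00000032297.5) 29.4 kb. Celf1 (chr2:90780539-90859654, plus strand, ENSMUSG00000005506.9) spans 79.1 kb, Celf4 (minus strand) 276 kb and Celf2 (chr2:6460751-7002348, minus strand, ENSMUSG00000002107.9) 542 kb. GC content was 54.1% in Celf3, 55.5% in Celf5, 47.5% in Celf6, 41.1% in Celf1, 49.1% in Celf4 and 40.3% in Celf2, against a median of 45.1% over 22367 protein-coding genes. The 2 shortest genes were the most GC-rich. Peaks carry no strand, so that signal from Celf5 cannot be told apart from that of Gm16105, and signal in Celf4 from that of the 7SK copy annotated inside it.

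The DNA just before the transcription starts shows how differently the promoters are built. The 150 bases before the start with the most protein-coding transcripts, or the outermost of tied starts, are given below, 5′ to 3′ on the strand of the gene, with CG dinucleotides in capitals, read from the mm9 genome. They lie at chr2:90780389-90780538 for Celf1, chr3:94282603-94282752 for Celf3, chr10:80945455-80945604 for Celf5, chr9:59425574-59425723 for Celf6 and chr2:6643263-6643412 for Celf2.
Celf1: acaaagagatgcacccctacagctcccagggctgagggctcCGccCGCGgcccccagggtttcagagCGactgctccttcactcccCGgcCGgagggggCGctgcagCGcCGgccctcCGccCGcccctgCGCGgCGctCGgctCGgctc
Celf3: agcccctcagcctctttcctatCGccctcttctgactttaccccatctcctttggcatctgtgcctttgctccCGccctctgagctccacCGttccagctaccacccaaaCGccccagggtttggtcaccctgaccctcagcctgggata
Celf5: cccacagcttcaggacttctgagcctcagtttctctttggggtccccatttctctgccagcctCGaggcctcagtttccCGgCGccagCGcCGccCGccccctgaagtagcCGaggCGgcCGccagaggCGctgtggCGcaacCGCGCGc
Celf6: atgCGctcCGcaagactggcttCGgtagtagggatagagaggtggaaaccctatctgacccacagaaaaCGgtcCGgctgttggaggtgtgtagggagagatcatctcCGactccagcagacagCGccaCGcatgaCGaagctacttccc
Celf2: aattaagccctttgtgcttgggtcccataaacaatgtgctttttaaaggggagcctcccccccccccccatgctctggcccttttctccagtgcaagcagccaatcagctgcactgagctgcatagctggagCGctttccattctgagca
The Celf1 promoter holds 16 CG dinucleotides and is 75.3% GC, that of Celf5 holds 14 and is 68.7% GC, that of Celf6 holds 9 and is 56.7% GC, that of Celf3 holds 4 and is 59.3% GC, and that of Celf2 holds 1 and is 54.0% GC. In the kilobase centred on each start, observed over expected CG was 0.824 in Celf1, 0.725 in Celf6, 0.646 in Celf5, 0.249 in Celf3 and 0.228 in Celf2. Peaks were found at starts of either kind. The CG-poor start of Celf3 and the CG-rich start of Celf1 lay within 1 kb of a peak in 9 of 9 untreated libraries, the CG-rich starts of Celf5 and Celf6 in 1 and 0, and the CG-poor start of Celf2 in 0. The start of Celf4, with an observed over expected CG of 0.878, lay within 1 kb of a peak in 9 of 9. Over all 22367 protein-coding starts 11.1% had a peak within 1 kb in 9 of 9 libraries and 65.9% in none.

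Restriction cutting before capture sets the ends of the captured DNA, and many peak edges lay exactly on a cut. On average 31.6% ± 2.21 (SD, n = 9) of all peak edges lay on a cut of the 5 enzymes, and 37.7% of the edges in Celf1, 37.2% in Celf3, 25.2% in Celf4, 19.0% in Celf5 and 22.0% in Celf6 did. The sequences around the edges that recurred in most libraries, outside Celf4, are given on the strand of the gene with the recognition site in capitals.
Celf1, left edge at the start, HindIII: ccctaactctgaAAGCTTgcaacacacatt
Celf1, right edge at the start, HindIII: actttagctggcAAGCTTatgagttctctt
Celf1, edge near the end of the gene, XbaI: aaaatctattttTCTAGAacttcataagat
Celf3, left edge, SspI: ttgtgaatgtttAATATTtcgattaatgtg
Celf3, right edge, XbaI: ttggggcttaatTCTAGAatgttcttccac
Celf5, edge nearest the start, BsrGI: aggtcccctcccTGTACAcacacacctccc
Celf6, left edge, XbaI: cgtggctttgtcTCTAGAggaccggaagct
The 3 Celf1 edges (chr2:90780088-90780117, chr2:90782070-90782099 and chr2:90856999-90857028), both Celf3 edges (chr3:94280192-94280221 and chr3:94296271-94296300), and the Celf5 (chr10:80937366-80937395) and Celf6 (chr9:59450367-59450396) edges are given with 12 bases on each side of the site. The HindIII edges of Celf1 and both Celf3 edges were shared by 9 of 9 untreated libraries, and the others by 7 of 9. Cut sites occurred 0.456 times per kb in Celf3, 0.746 in Celf5, 1.25 in Celf4, 1.69 in Celf6, 1.85 in Celf1 and 2.07 in Celf2. Fragments under a peak had the larger median length, which is partly set by how they were called. A call needed at least 100 bases under a peak. Shorter fragments could thus not be called, and longer ones had more room to meet a peak. In Celf4 the 36 fragments with a peak in an untreated library had a median length of 1866 bases and the others 468 bases. In Celf1 these medians were 1199 and 308 bases, and in Celf6 1259 and 376 bases. Whether fragment length has a part in the levels below was not tested.

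**Figure D1:**
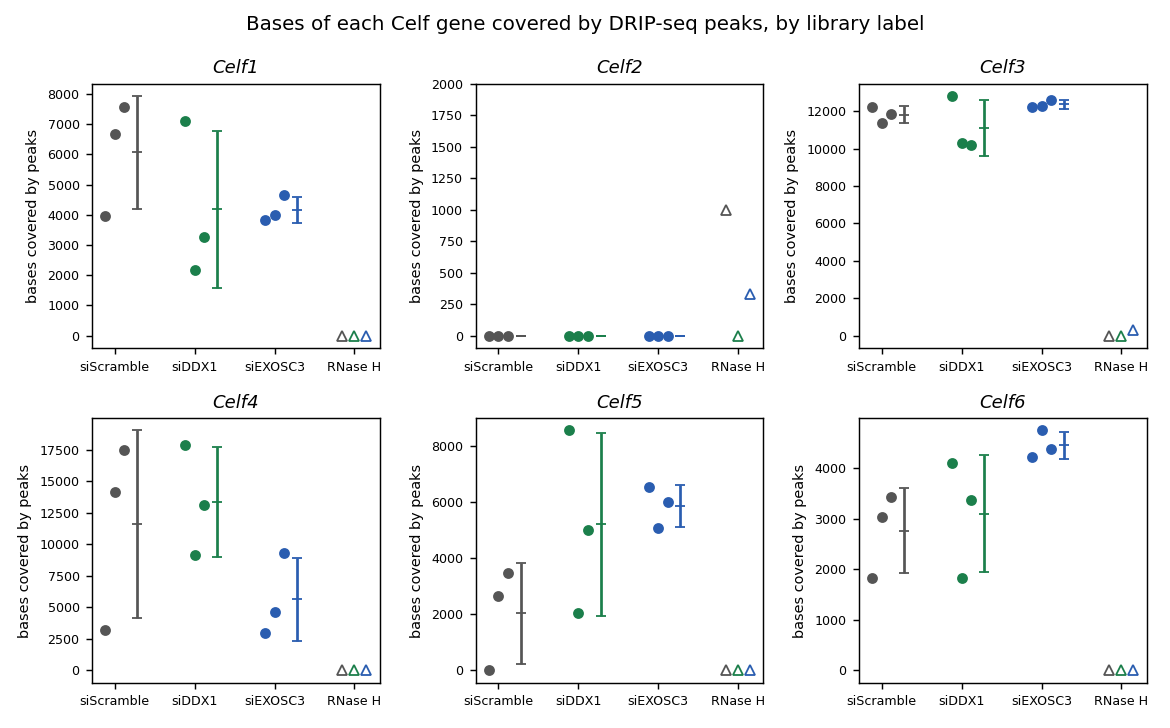
Bases of each Celf gene (bounds extended by 1 kb) covered by peaks, for every library; filled points are untreated libraries by label, open triangles the RNase H library of each group in the same colours, and bars the mean ± SD of 3 libraries. Celf3 sits between 10197 and 12840 bases in all 9 untreated libraries, Celf2 at 0, and the RNase H libraries at 0 except for 995 and 328 bases in Celf2 and 285 bases in Celf3.

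Celf3 is a splicing regulator of neurons and the shortest gene of the family. Peaks covered 12258, 11377 and 11843 of its bases in the libraries labelled siScramble, 12840, 10306 and 10197 in those labelled siDDX1, and 12219, 12260 and 12629 in those labelled siEXOSC3. The 9 values differed little, and on average 76.6% of the extended gene was covered. This was rank 333 among 22367 protein-coding genes. Merged over the untreated libraries, the peaks formed 4 regions, of which 3 were called in 9 of 9 libraries. These ran from 2.55 kb before the start to 2.48 kb after it, from 2.80 to 5.87 kb, and from 6.13 kb to 13.5 kb, just past the end of the gene. The first began at the SspI site and the last ended at the XbaI site shown above. A left edge at 3.28 kb and a right edge at 2.19 kb recurred in 6 and 7 libraries without lying on a cut.

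Celf3 also had the strongest peaks of the family. The fold over input of its strongest peak was 11.1, 20.4 and 18.7 in the libraries labelled siScramble, 16.1, 15.98 and 22.02 in those labelled siDDX1, and 25.5, 22.02 and 45.7 in those labelled siEXOSC3. All 3 libraries labelled siEXOSC3 lay above the 3 labelled siScramble. The same held for 10.7% of the 6733 genes with a peak in every untreated library. Across the 3 groups the exact permutation p was 0.0607 for Celf3, adjusted p = 0.684 by Benjamini-Hochberg over the 6733 genes, and 6.79% of them had an unadjusted p under 0.05. In its own library the strongest Celf3 peak was above 91.9% to 99.6% of all peaks. For the other members with peaks the mean of the strongest fold was 9.501 ± 1.71 in Celf1, 8.45 ± 1.88 in Celf4 and 8.00 ± 1.22 in Celf6 (SD, n = 9), and 7.46 ± 1.36 in Celf5 (SD, n = 8).

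**Figure D2:**
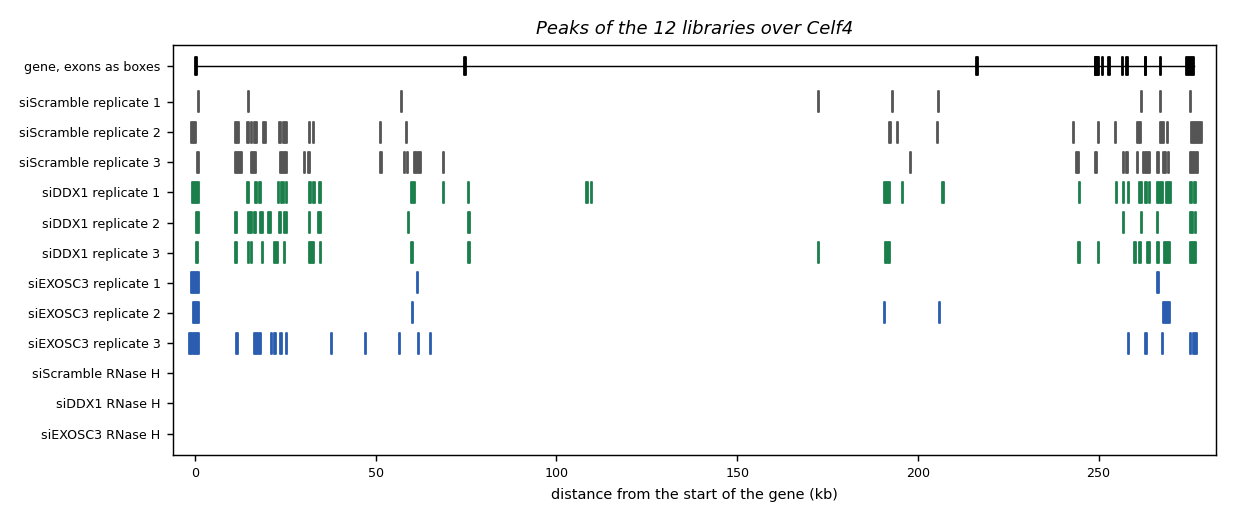
Peaks of the 12 libraries over Celf4, with distance from the start of the gene in kb on the x axis and 1 row per library (bars are drawn no thinner than a fixed line width); the gene model with its exons is at the top. Peaks gather toward both ends of the gene, none lies between 110.0 and 172.3 kb, and the RNase H rows are empty.

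Celf4 (chr18:25636133-25912484, ENSMUSG00000024268.8) encodes a neuronal RNA-binding protein, known for binding many synaptic mRNAs. Peaks covered 3225, 14102 and 17449 bases of the gene in the libraries labelled siScramble, 17848, 9170 and 13071 in those labelled siDDX1, and 2971, 4605 and 9332 in those labelled siEXOSC3. The spread within each group was wide, and every pair of groups overlapped. The overlap of the libraries labelled siEXOSC3 with those labelled siDDX1 rested on 9332 against 9170 bases and was lost without the 1 kb extension of the gene. The means were 11592 ± 7437, 13363 ± 4346 and 5636 ± 3303 bases (SD, n = 3 each). The number of peaks ran from 3 to 32 per library, and their median width from 341 to 640 bases. They were weak as well as small: the median fold of the Celf4 peaks was between 4.69 and 5.34 in every untreated library. That of the Celf3 peaks was between 6.19 and 19.6.

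The Celf4 peaks were not spread evenly along the gene. Of the covered bases 45.9% lay in the first part when the gene was cut into 5 equal parts of 55.3 kb, and 35.0% in the last. The third part held no peak in any untreated library, and the longest stretch without a peak ran for 62.3 kb, from 110.0 to 172.3 kb after the start. From the first part to the last, GC content was 47.1%, 48.8%, 49.3%, 50.7% and 49.5%, and the parts held 72, 65, 80, 66 and 65 cut sites. The third part thus had the most cut sites, and their part in the position of the peaks was not tested. Exons made up 1.45% of the gene and 11.7% of the covered bases, and 47 of 54 merged regions lay in introns.

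Of the 54 Celf4 regions 1, from 1.65 kb before the start to 1.25 kb after it, was called in all 9 untreated libraries, which is 1.85%. Over all 69495 merged regions 10.7% were called in 9 of 9. A single library called 25 of the 54, or 46.3%, against 45.3% over all regions. Beside the start, the regions called most often were those at 267.0 to 270.2 kb and at 275.2 to 278.5 kb, over the last exons and the end of the gene, each called in 7 libraries. Both were called in 3 libraries labelled siScramble, those labelled siDDX1 called the first in 2 and the second in 3, and those labelled siEXOSC3 called the first in 2 and the second in 1.

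All-or-none regions, called in every library of 1 group and in none of another, numbered 6 of 54 in Celf4 and 0 in the other members, against 2.06% of all regions. In 5 of the 6 the libraries labelled siDDX1 called the region in 3 of 3 and those labelled siEXOSC3 in 0 of 3, which was the case for 0.393% of all regions. These lay in introns at 14.5 to 15.1, 31.2 to 33.2, 34.0 to 34.9, 75.6 to 76.0 and 260.6 to 262.1 kb from the start. Of the 6, 3 were called by all libraries labelled siDDX1 and by none labelled siScramble, against 0.2% of all regions. No Celf4 region was called by all libraries labelled siEXOSC3 and by none of another group. Neighbouring regions of 1 gene are not independent, and regions were not tested singly. When a call needed the larger part of the region covered, 1 of the 6 was still all-or-none, that at 75.6 kb, together with the region over the start. With peaks of −log10 q of at least 5 there was 1, at 31.5 kb.

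Celf4 also moved with the number of peaks in a library. Across the 9 untreated libraries its covered bases correlated with the number of peaks with Pearson's r = 0.717 (exact permutation p = 0.0387) and Spearman's rho = 0.683 (exact permutation p = 0.0503), adjusted p = 0.102 over all 11463 genes tested. Without the libraries labelled siEXOSC3 replicate 3 and siScramble replicate 3, the farthest from the median, r was 0.793 (exact permutation p = 0.0353, n = 7). This is a common relation, with an unadjusted p under 0.05 in 42.7% of the genes tested. Among the paralogues r was 0.809 in Celf1 (exact permutation p = 0.0123, adjusted p = 0.0581), 0.520 in Celf6, 0.473 in Celf5 and 0.411 in Celf3. Celf3 had the lowest r of these members.

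When every library was cut to its 23882 strongest peaks, Celf4 kept 3225, 8626 and 9057 bases in the libraries labelled siScramble, 10803, 9170 and 11012 in those labelled siDDX1, and 2971, 3901 and 3856 in those labelled siEXOSC3. The libraries labelled siDDX1 then lay above both other groups without overlap, but above those labelled siScramble only by 9170 against 9057 bases. How many of all genes separate in this way at this setting was not counted. The exact permutation p across the 3 groups was 0.025 and adjusted p = 0.679, and 6.39% of the genes had an unadjusted p under 0.05 at this setting. By the names of the peaks, the group with the most covered bases would be siEXOSC3 and the group with the fewest siScramble.

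The genes whose pattern was most like that of Celf4 were sought among 2447 other protein-coding genes of at least 50 kb, by Pearson's r of covered bases as a share of the library total over the 9 untreated libraries. They were Xpr1, a phosphate exporter (r = 0.962), Atf6, a transcription factor of the endoplasmic reticulum stress response (r = 0.960), and Neo1, a netrin receptor (r = 0.957). Atf6 had 4778, 20102 and 23004 covered bases in the libraries labelled siScramble, 21409, 11613 and 13412 in those labelled siDDX1, and 3487, 4780 and 9947 in those labelled siEXOSC3. The libraries labelled siScramble replicate 1 and siEXOSC3 replicates 1 and 2 were low in Atf6 as in Celf4. Atf6 was picked for its r over these same libraries, so such a likeness is built in. The 3 values of r are the highest among 2447 genes. Among the paralogues r with Celf4, also of shares and not of covered bases, was -0.12 in Celf1, -0.06 in Celf5, -0.51 in Celf3 and -0.53 in Celf6. The share of a gene with nearly constant covered bases, such as Celf3, falls wherever the library total is large. These r values thus do not show that covered bases of the paralogues and Celf4 ran apart. All these values share the same libraries and their depth.

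**Figure D3:**
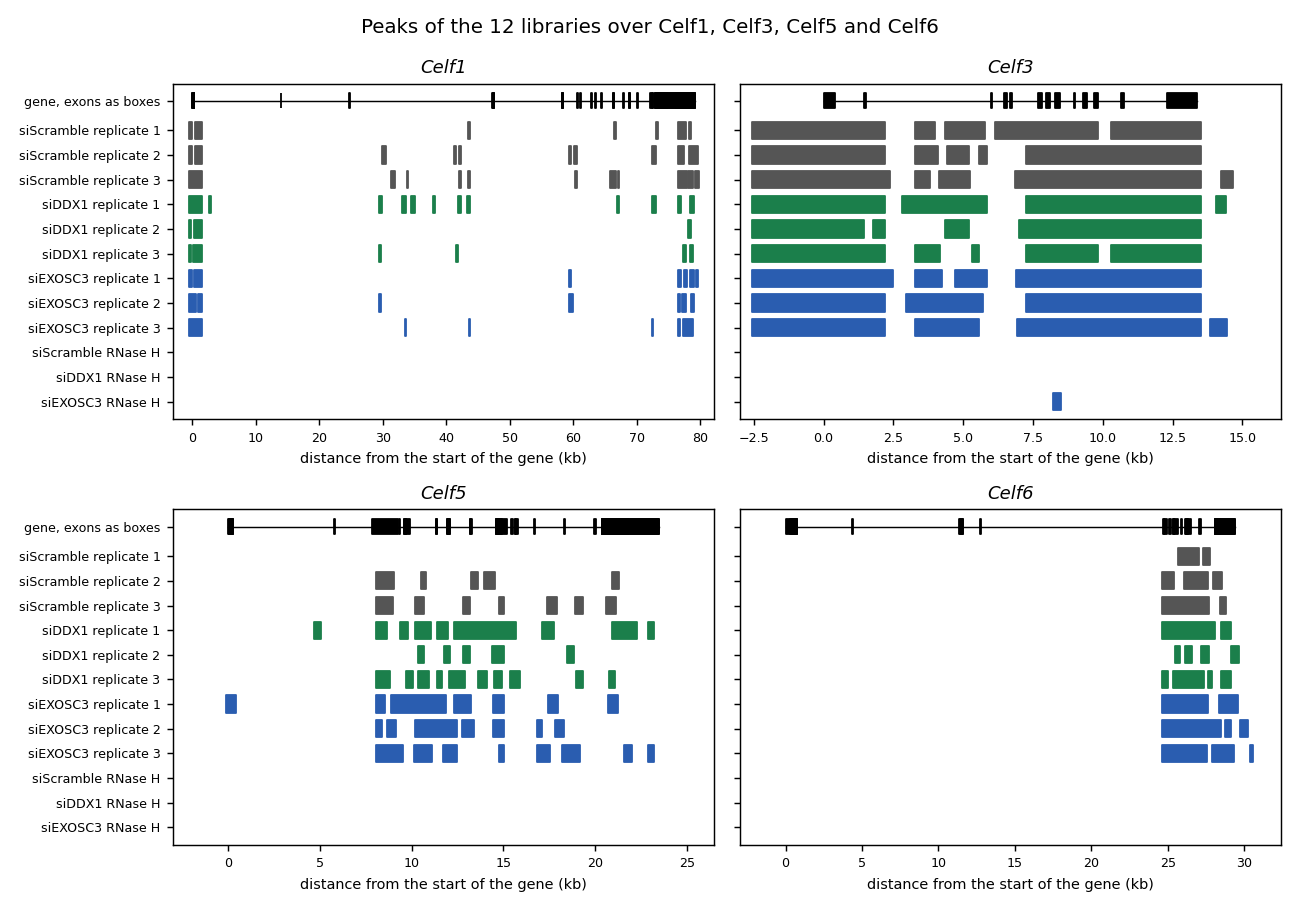
Peaks of the 12 libraries over Celf1, Celf3, Celf5 and Celf6, with distance from the start of each gene in kb on the x axis, 1 row per library and the gene model at the top. Celf1 has peaks at its start and end in every untreated library, Celf5 none before 8.07 kb in most libraries, and Celf6 peaks in its last part alone.

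Celf1 (CUGBP1), the founding member, regulates splicing and decay of GU-rich mRNAs. Its covered bases were 3970, 6676 and 7570 in the libraries labelled siScramble, 7111, 2169 and 3252 in those labelled siDDX1, and 3833, 3986 and 4650 in those labelled siEXOSC3. The groups overlapped in each pair. Of 19 merged regions 2 were called in 9 of 9 untreated libraries. The first was the HindIII fragment of 1986 bases over the start, from 0.438 kb before it to 1.55 kb after it. The other lay over the last exon and the end of the gene, from 76.5 to 79.7 kb. The remaining 17 regions were each called in at most 4 libraries, and 15 of the 19 lay in introns. The inner starts at chr2:90827777-90827903 and chr2:90838736, which serve 4 protein-coding transcripts, had no peak within 1 kb in any library.

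Celf5 is a neuronal member of the family. Peaks covered 0, 2638 and 3461 of its bases in the libraries labelled siScramble, 8568, 2063 and 4999 in those labelled siDDX1, and 6542, 5074 and 6009 in those labelled siEXOSC3. All 3 libraries labelled siEXOSC3 were above the 3 labelled siScramble, of which replicate 1 had no peak in the gene. All but 2 of the peaks lay 8.07 to 23.2 kb from the start. The largest region, from 8.07 to 15.9 kb, was called in 8 libraries and covered inner starts at chr10:80935747-80936123. The annotated first exon had a peak in 1 library, labelled siEXOSC3 replicate 1. Exons made up 28.4% of Celf5 and 40.7% of its covered bases.

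Celf6 is a splicing regulator found mainly in brain. Its covered bases were 1823, 3026 and 3438 in the libraries labelled siScramble, 4093, 1834 and 3367 in those labelled siDDX1, and 4226, 4748 and 4387 in those labelled siEXOSC3. Each library labelled siEXOSC3 was above every library of the other groups, but without the 1 kb extension those labelled siDDX1 overlapped with them. No peak lay before the XbaI site at 24.7 kb, in the last of 5 equal parts of the gene. That part had 3 cut sites and a GC content of 52.3%, while the 4 parts before it had 10 to 15 cut sites and 43.7% to 49.6% GC. Exons made up 12.3% of Celf6 and 49.0% of its covered bases. The first exons and the inner starts at chr9:59437095-59437146 had no peak within 1 kb in any library.

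Celf2 (CUGBP2), a regulator of splicing and mRNA stability, had 0 covered bases in 9 of 9 untreated libraries, at any of its annotated starts or at its end. Its 1125 restriction fragments had a median length of 333 bases and a longest of 5390 bases. A gene of this length without a peak is not unusual here, since 110 of the 200 protein-coding genes of at least 500 kb (55.0%) had none. RNase H libraries held 3 small peaks in Celf2 introns. The one labelled siScramble had peaks of 680 and 315 bases, with folds of 6.40 and 5.40, at 157.7 and 125.0 kb from the start, and the one labelled siEXOSC3 had 1 of 328 bases, with a fold of 4.18, at 186.8 kb.

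**Figure D4:**
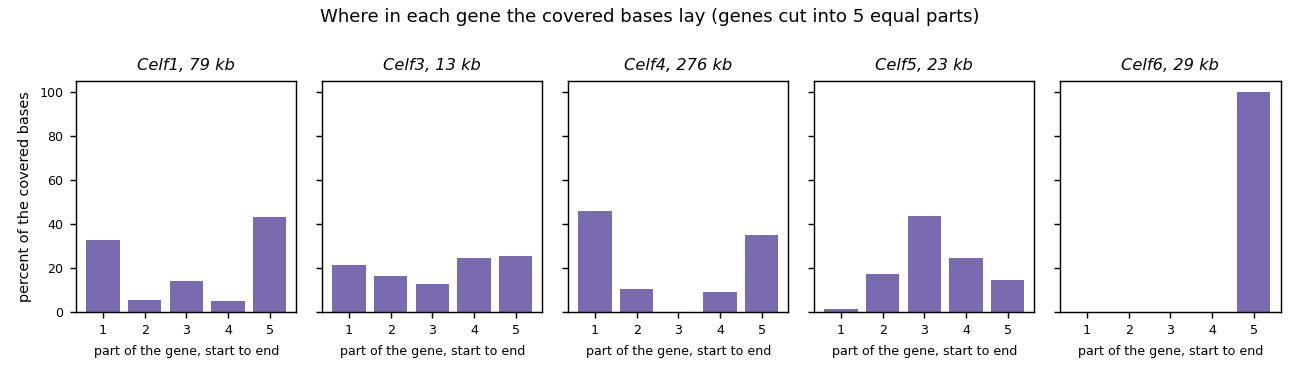
Share of the covered bases in each of 5 equal parts of the gene, from its start to its end, summed over the 9 untreated libraries (bars, percent) for the 5 members with peaks. Celf1 and Celf4 are highest in the first and last parts, Celf5 in the third, and Celf6 holds 100% in the last.

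Across the 3 siRNA groups no member passed the test. For covered bases an exact permutation test with 280 distinct assignments of the libraries gave p = 0.475 for Celf1, 0.296 for Celf3, 0.296 for Celf4, 0.164 for Celf5 and 0.125 for Celf6. After Benjamini-Hochberg adjustment over the 11463 genes with a peak in at least 3 untreated libraries all were at an adjusted p of 1. Of the 5 members tested 0 had an unadjusted p under 0.05, against 3.44% of all genes, and 0 of all genes passed after adjustment. Celf2 did not enter. Taken as a share of the bases covered in the library, Celf4, Celf5 and Celf6 had exact permutation p = 0.05, 0.0321 and 0.0393, with adjusted p = 0.480, 0.449 and 0.460, and 9.75% of all genes had an unadjusted p under 0.05 at that scale. On this scale, as covered bases per Mb covered in the library, Celf5 was at 0, 66.5 and 79.1 in the libraries labelled siScramble, 189, 93.9 and 178 in those labelled siDDX1, and 231, 167 and 151 in those labelled siEXOSC3. Celf6 was at 78.7, 76.3 and 78.6, at 90.3, 83.5 and 120, and at 149, 156 and 111 in the same order of groups. In both genes the libraries labelled siDDX1 overlapped those labelled siEXOSC3 and lay above those labelled siScramble. In Celf6 this rested on 83.5 against 78.7. Celf1 ran the other way, with all libraries labelled siScramble above those of the other groups, by 168.4 against 156.9. Its exact permutation p across the groups was 0.0643 (adjusted p = 0.503). In Celf4 the libraries labelled siEXOSC3 lay below those labelled siDDX1, by 235.2 against 393.9, and those labelled siScramble overlapped with both. In Celf3 all groups overlapped. How many of all genes separate in these ways on this scale was not counted. With the libraries cut to an equal number of peaks, p was 0.0179 for Celf6 (exact permutation test, adjusted p = 0.679).

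Between pairs of groups 3 libraries against 3 cannot reach a two-sided p below 0.1. The libraries labelled siEXOSC3 minus those labelled siScramble gave 3842 bases in Celf5 and 1691 bases in Celf6, without overlap (exact permutation p = 0.1 each). All libraries labelled siEXOSC3 lay above those labelled siScramble in 7.26% of the genes tested, and the groups did not overlap in either direction in 11.6%. For the libraries labelled siEXOSC3 against siDDX1 the groups did not overlap in Celf6 (1356 bases, exact permutation p = 0.1). Without the 1 kb extension of the gene bounds they overlapped in Celf6 (1211 bases), while Celf4, lower by the same comparison, did not overlap (-7998 bases). With the extension, all libraries labelled siEXOSC3 lay above those labelled siDDX1 in 5.78% of genes, and the groups did not overlap in either direction in 8.65%. Between the libraries labelled siDDX1 and siScramble all members overlapped, and 3.27% of the genes did not. These pairs share their groups. With 1 library left out, unadjusted p fell under 0.05 in 3 members. Without the library labelled siDDX1 replicate 1, Celf3 had an exact permutation p = 0.00714 across the groups (adjusted p = 0.434), where 9.85% of genes were under 0.05. Without siDDX1 replicate 2, Celf5 had an exact permutation p = 0.0393 and Celf6 0.0214 (adjusted p = 1 for both), where 3.1% of genes were under 0.05.

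Signal in the Celf genes was almost absent after RNase H digestion. The libraries digested with RNase H had 0 covered bases in Celf1, Celf4, Celf5 and Celf6 in 3 of 3 groups, and in Celf3 0, 0 and 285 bases. An exact permutation test that moved the RNase H label within each group gave p = 0.0156 for Celf1, Celf3, Celf4 and Celf6, the smallest its 64 assignments allow, and 0.0313 for Celf5. The adjusted p was 0.0327 for the first 4 and 0.057 for Celf5, so that 4 of the 5 members tested passed. Of the 11861 genes tested, 45.3% were lower with RNase H and passed. Celf1, Celf4, Celf5 and Celf6 entered the test through untreated peaks alone. With 0 bases in each RNase H library, no assignment could give them a larger difference in this direction. The RNase H lists were also shorter over the whole genome, with 3811 to 8034 peaks against 23882 to 42571. These p-values thus add little to the 0 values. Celf2 ran the other way, with 995, 0 and 328 covered bases in the RNase H libraries (exact permutation p = 0.0625) and no adjusted value, since only 2 libraries had a peak. Celf4 missed the threshold with peaks of −log10 q of at least 5 (exact permutation test, adjusted p = 0.0614). It also did so without the libraries labelled siScramble replicate 2 (0.078), siScramble replicate 3 (0.0764) or siDDX1 replicate 3 (0.075). Celf5 passed without siScramble replicate 1 (exact permutation test, adjusted p = 0.0387).

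**Figure D5:**
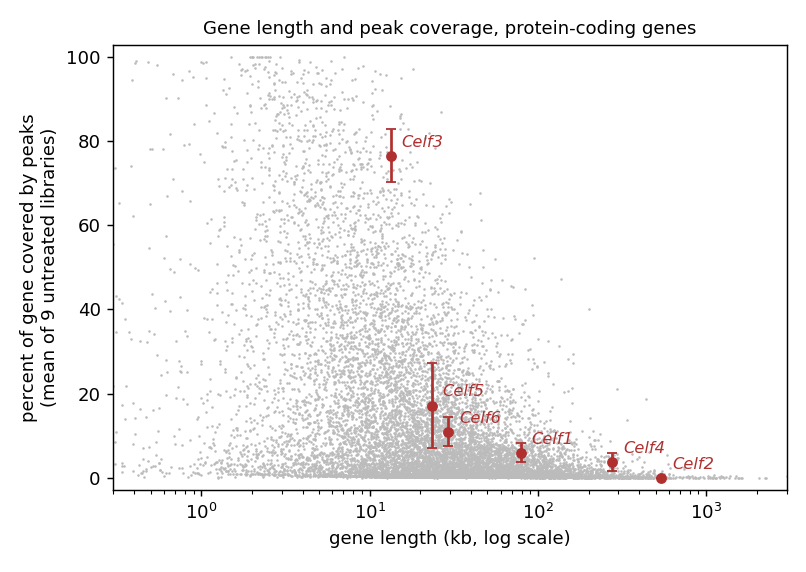
Gene length (kb, log scale) and the percent of the gene covered by peaks (mean of 9 untreated libraries), for the 11156 protein-coding genes with a peak in any untreated library (grey; genes shorter than the axis are not drawn) and the 6 Celf genes (red, bars ± SD over 9 libraries). Coverage of the Celf genes falls with each step in length, from 76.6% in Celf3 to 0% in Celf2.

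Set by gene length, the 6 members formed a single order. From the shortest to the longest, the mean percent covered was 76.6% ± 6.23 in Celf3, 17.2% ± 10.2 in Celf5, 10.96% ± 3.38 in Celf6, 5.92% ± 2.31 in Celf1, 3.66% ± 2.08 in Celf4 and 0% in Celf2 (SD, n = 9), and each longer gene had a lower mean. Celf5 and Celf6 overlapped in their values, as did Celf6 with Celf1 and Celf1 with Celf4. Spearman's rho of length and percent covered was -1 over the 6 genes and -0.52 over the 11156 protein-coding genes with a peak, given as descriptions. Genes are not independent replicates, and length goes with GC content.

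Celf4 had a lower share covered than each paralogue but Celf2. Celf4 minus Celf3 was -72.9 ± 6.83 percentage points (SD, n = 9), minus Celf5 -13.5 ± 9.86, minus Celf6 -7.29 ± 3.89 and minus Celf1 -2.26 ± 1.72. Exact two-sided sign-flip permutation tests over the 9 libraries gave p = 0.00391 for Celf3 and Celf6, the smallest possible, 0.00781 for Celf5 and 0.0156 for Celf1. Celf4 was above Celf2 by 3.66 ± 2.08 points, which has no test here, since Celf2 was at 0 in each library. Counted in bases the order turned: Celf4 had 10197 ± 5794 covered bases, against 4802 ± 1876 in Celf1, 4373 ± 2602 in Celf5 and 3438 ± 1062 in Celf6 (SD, n = 9). The differences were 5395 bases from Celf1, 5824 from Celf5 and 6759 from Celf6, with exact permutation p = 0.0273, 0.0313 and 0.0156. Against Celf3, with 11770 ± 958 bases, no difference was found (-1573 ± 5998 bases, exact permutation p = 0.441). Measured against genes of its own size, Celf4 was high: of the 754 protein-coding genes of 200 to 500 kb, 90% had at most 1.81% of their length and 4986 bases covered, whereas Celf4 had 3.66% and 10197. Celf3 likewise stood above the 40.8% that bounded 90% of the 12649 genes under 20 kb. Celf5, Celf6 and Celf1 stayed under that bound for their size, 19.5% for genes of 20 to 50 kb and 8.59% for genes of 50 to 100 kb.

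Among other RNA-binding proteins, neuronal splicing regulators and related genes, mean coverage ran from 0% to 91.4%, against 0% to 76.6% in the Celf genes. Of 20 such genes (Elavl, Mbnl, Rbfox, Nova, Ptbp, Khdrbs, Srrm4 and Qk), 19 were found by these symbols in the annotation, 16 had a peak in at least 3 untreated libraries and 12 in all 9. Of the Celf genes 4 of 6 had one in all 9, and of all protein-coding genes 26.2%. The median covered bases of the 19 were 1821, against 4587 in the 6 Celf genes and 0 over all protein-coding genes. Rbfox2, a splicing regulator of 228 kb, had the most, with 10427 to 29793 bases per library, while Rbfox1, Mbnl3 and Khdrbs2 had 0 in 9 of 9. Rbfox1, at 603 kb, was thus, as Celf2, without a peak in the untreated libraries. None of the 16 tested had an unadjusted p under 0.05 across the siRNA groups (lowest p = 0.214, exact permutation test), against 3.44% of all genes tested. With RNase H 11 of the 16 tested were lower and passed, against 45.3% of all genes tested, and 0 passed as higher. The 16 entered through untreated peaks alone, whereas RNase H peaks also counted for the entry of all genes. The RNase H lists were also shorter over the whole genome. These shares are thus not alike, and no excess is read from them.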

How the data were processed

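DRIP-seq was carried out in 12 libraries of N2a cells with a peak list each; the input library was not analysed here. Per the labels and the methods, the authors aligned reads to mm9 with Bowtie2 2.4.4, sorted them with SAMtools and called peaks for each library with MACS2 2.2.6 against input. The deposited lists give, for each peak, its bounds, its fold enrichment (a ratio) and −log10 of p and q. Every peak had a −log10 q above 2, so weaker signal is not seen. The lists hold no counts, so that the read-count test of the methods could not be run.

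Gene and transcript bounds came from GENCODE M1 (mm9). Bases covered by peaks, the number of peaks and the highest fold were computed per library for all 37273 genes with bounds extended by 1 kb. Groups came from library titles. Covered bases were compared by exact permutation tests, with Benjamini-Hochberg adjustment over all genes tested (those with a peak in at least 3 libraries), using Python 3.11.15, numpy 2.4.6 and scipy 1.17.1. The scripts were tested on simulated data. Cut sites of the 5 enzymes were found in the mm9 genome, and a fragment was called when at least 100 of its bases lay under a peak. Replicates were separate culture plates per the methods, and p-values measure the spread between these libraries. The starts whose sequences are shown were those with the most protein-coding transcripts, after starts within 500 bases were joined. Named genes were the 6 members, the 3 genes most like Celf4, and members of the list of RNA-binding proteins with the most and fewest covered bases. The members and lists were chosen with earlier results of these data known. The highest fold as a value was added after seeing the data. Some marker genes are not reported here.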

Additional observations from a re-analysis of the deposited data

How the results depend on the processing

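Of 120 alternative values for pairs of groups, 15 lost an overlap of the groups and 1 gained it (Celf6, siEXOSC3 and siDDX1, no extension of the gene). Most of these left out 1 library, which can end an overlap of groups but cannot start one. The number of genes with an unadjusted p under 0.05 across the groups (394) was 655 with libraries cut to the same number of peaks, 1118 as a share of the library total, and 257 (without siScramble replicate 2) to 1095 (without siDDX1 replicate 1) with 1 library left out. With the replicate block it was 67, and p was 0.556 for Celf1, 0.333 for Celf3, 0.361 for Celf4, 0.222 for Celf5 and 0.278 for Celf6 (exact permutation test). Same-numbered libraries correlated between -0.17 and 0.19, so that they share only a number. Group pairs without overlap numbered 5 in place of 3 of 15 with equal peaks, and these 5 lay in Celf4, Celf5 and Celf6. In Celf3 siEXOSC3 minus siScramble was 967 bases at that setting, and the groups overlapped, by 12258 against 12109 bases. The share of all genes without overlap was not counted with equal peaks. The adjusted p for RNase H in Celf4 was 0.0614 with peaks of −log10 q of at least 5, and 0.0387 to 0.078 with 1 library left out, as in Celf5 (exact permutation test). In covered bases in place of percent, Celf4 was above Celf1 by 5395, Celf5 by 5824 and Celf6 by 6759 bases, while the difference from Celf3 was -1573 bases. Percent covered divides by gene length, which covered bases does not. Peaks of −log10 q of at least 5 left 42 of 86 regions, 23 in Celf4, 15 called in 1 library and 1 all-or-none in Celf4. With the larger part of a region covered, 3 regions were called in 9 libraries and 2 in Celf4 were all-or-none, of which 1 was among the 6. For the other changes the cause was not tested. The lists hold no read counts, so that signal below the peak threshold is not seen.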
